A study of Mus musculus with 6 samples.

Results

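The Sox genes studied here were Sox8 and Sox9 (SoxE group), Sox4, Sox11 and Sox12 (SoxC group), and Sox5 and Sox6 (SoxD group). They were chosen by name, with earlier results of these data known. Every probe set annotated to exactly 1 of them was taken. This gave 7 genes of the 18193 measured and 32 probe sets of the 45037 tested. Each gene was represented by whichever of its probe sets had the highest 6-array mean. Whole kidneys of mouse embryos at E13.5 had been profiled on Affymetrix MOE430.2 arrays. The genotypes compared were Fz4-/-Fz8-/- kidneys (double-null, arrays M1, M2 and M3) and Fz4+/+Fz8-/- kidneys (Fz8-null, arrays C1, C2 and C3). Both genotypes lacked Fz8, so no array held a kidney with both receptors, and the strain background mixed C57BL/6, 129X1/SvJ and 129S1/Sv. How the alleles were made, and whether an array held the kidneys of 1 embryo or of several, is not given in the sources used here. Fz4 and Fz8 are Frizzled receptors for Wnt ligands, and the comparison asks what the loss of Fz4 changes when Fz8 is already absent.

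Sox proteins are transcription factors that bind and bend DNA through a high mobility group box related to that of Sry. In the mouse kidney Sox8 and Sox9 are made in the tips of the branching ureteric epithelium, where they act redundantly and in concert with Ret signalling. Sox4, Sox11 and Sox12 are activators found in many embryonic progenitor cells, and loss of Sox11 in mice disturbs the formation of kidney and ureter. Sox5 and Sox6 have no activation domain of their own. They pair through a coiled coil and work with Sox9 in cartilage, and in mouse red cell precursors Sox6 silences an embryonic globin gene.

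RefSeq promoter windows (GRCm38.p6, 250 bases before to 50 bases after the start) were found for 6 of the 7 genes, 11 windows in all, and none for Sox9. The windows of Sox8 and Sox11 are shown because these were the members with a mean log2 of at least 6 whose representative values did not overlap between genotypes, a choice made after the values were seen. Capitals mark the letters CTTTG, the shared core of the sites bound by the Tcf/Lef factors of Wnt signalling and by many Sox factors. Both are written 5′ to 3′ along the gene, which lies on the minus strand.
Sox8, chr17:25570637-25570936: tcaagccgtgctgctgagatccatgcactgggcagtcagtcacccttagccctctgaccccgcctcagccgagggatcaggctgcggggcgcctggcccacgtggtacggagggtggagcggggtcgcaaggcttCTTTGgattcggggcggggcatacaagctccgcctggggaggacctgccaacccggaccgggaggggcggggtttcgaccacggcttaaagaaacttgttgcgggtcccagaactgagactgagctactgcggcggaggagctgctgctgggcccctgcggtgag
Sox11, chr12:27342669-27342968: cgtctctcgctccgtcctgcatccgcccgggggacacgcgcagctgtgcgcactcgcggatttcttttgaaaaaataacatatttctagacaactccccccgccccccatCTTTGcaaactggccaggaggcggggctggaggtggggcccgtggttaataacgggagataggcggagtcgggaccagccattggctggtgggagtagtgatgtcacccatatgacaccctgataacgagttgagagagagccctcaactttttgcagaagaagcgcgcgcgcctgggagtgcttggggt
The match begins at base 136 of the Sox8 window and at base 111 of the Sox11 window. CTTTG or its complement CAAAG also stood in each of the 6 windows of Sox6, and it was in none of the windows of Sox4, Sox5 and Sox12. Of all 32851 promoter windows of this length, 53.9% held it on either strand. A second Sox core, ACAAT or its complement ATTGT, which does not overlap with these letters, was in neither window shown and in 31% of all windows. These matches describe the letters only.

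Fzd4 was tested first as a check of the labels. It read 5.29, 4.96 and 3.89 (log2 intensity) in M1, M2 and M3, against 10.74, 10.86 and 10.93 in C1, C2 and C3, and it fell with a fitted log2 difference of -6.13 (SE 0.35, limma adjusted p = 0.00318). M3 lay at the level of background, so the size of this difference is a lower bound. Of the other Fzd4 probe sets 1419301_at stood at -3.51 (limma adjusted p = 0.00957), and 1449416_at, near background in both genotypes, at -0.63 with overlap. All 3 double-null arrays lay far below every Fz8-null array at the representative probe set. Fzd8 lay near the background of the arrays in both genotypes, with means of 3.69 ± 0.18 in double-null and 3.98 ± 0.42 in Fz8-null kidneys (SD, n = 3). Kidney markers were present in all 6 arrays: Sall1 ranged from 10.59 to 11.27 in double-null and from 10.86 to 11.42 in Fz8-null kidneys, and the stromal gene Foxd1 from 9.98 to 10.11 in double-null and from 9.98 to 10.16 in Fz8-null kidneys.

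The arrays of a genotype were not equally alike, which bears on every Sox value below. Over all probe sets M1 and M2 correlated at 0.986 with each other. M3 correlated at 0.963 and 0.952 with M1 and M2 and at 0.987 to 0.990 with the Fz8-null arrays. M1 correlated at 0.972 with C1, above its correlation with M3. Probe sets for the 3′ end of beta-actin exceeded those for its 5′ end by 1.30, 1.08 and 0.57 in M1, M2 and M3, against 1.00, 0.74 and 0.75 in C1, C2 and C3. For Gapdh this excess was 1.15, 1.04 and 0.88 in M1, M2 and M3, against 1.01, 0.80 and 0.79 in C1, C2 and C3. The B1 repeat control read 11.83, 12.08 and 10.85 in M1, M2 and M3, against 11.02, 10.67 and 10.73 in C1, C2 and C3. Liver transcripts were higher in the double-null arrays for 9 of 9 genes, none past the threshold, with a summed log2 level of 10.15 to 13.36 in double-null and 8.87 to 9.66 in Fz8-null kidneys. The part of these differences in the Sox values was not tested. In whole kidneys, fewer cells of a type and less RNA per cell cannot be told apart.

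Of the 7 Sox genes 0 passed an adjusted p of 0.05 in limma over all 18193 genes, of which 0.0275% passed, and ordinary least squares also called 0. Of their 32 probe sets 0 passed over all probe sets, of which 0.0111% did. At an unadjusted p under 0.05, Sox8 and Sox5 were lower in double-null kidneys and 0 were higher, which is 2 of 7 genes where 9.23% of all genes were lower and 6.05% higher. The groups did not overlap for Sox5, Sox8 and Sox11, each lower in double-null kidneys, 3 of 7 where 12.2% of all genes lay lower and 6.68% higher in this way. A negative difference was seen for 6 members and for 58.1% of all genes, and for 24 of the 32 Sox probe sets and 55.6% of all probe sets. Brighter genes were lower more often than all genes. Of the 11174 genes that averaged at least 6, 71.5% lay lower, 16.3% lay lower without overlap and 12.4% were lower at an unadjusted p under 0.05, beside 5, 2 and 1 of the 6 members at that level. The median difference was -0.21 over the 7 members, against -0.061 for all genes together. It was -0.16 over the 6 brighter members, against -0.15 for all these brighter genes.

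**Figure D1:**
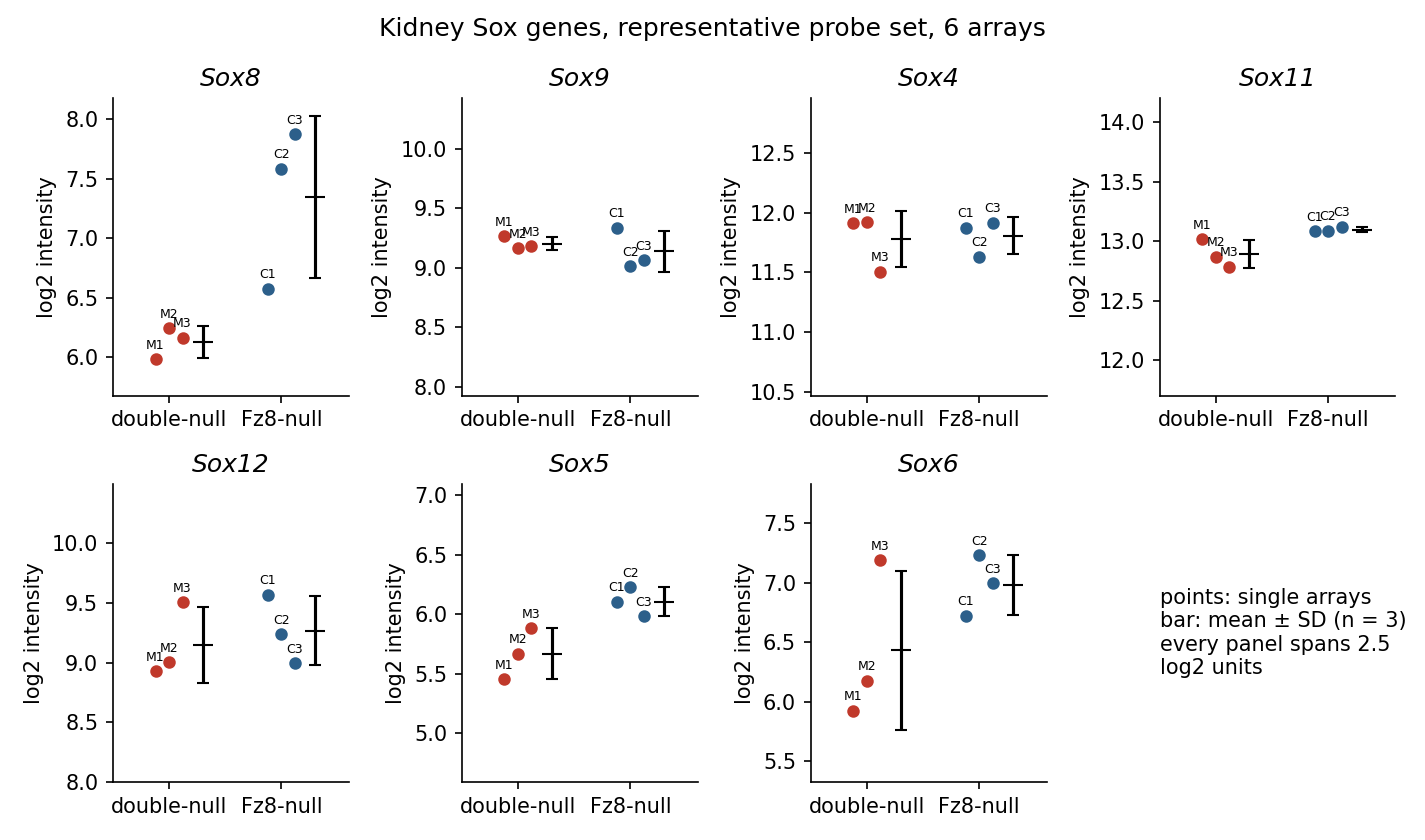
Log2 intensity of the representative probe set of each of the 7 Sox genes, with double-null arrays (M1, M2, M3) left of Fz8-null arrays (C1, C2, C3) and the mean ± SD (n = 3) beside the points. Every panel spans the same width on the log2 scale: the 3 double-null values of Sox8 lie below the Fz8-null values, those of Sox9 lie among them, and M3 sits apart from M1 and M2 for Sox6.

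Sox8, a SoxE factor of the ureteric tip, was the member with the largest difference. Its only probe set (1435438_at) read 5.99, 6.25 and 6.17 in M1, M2 and M3, against 6.58, 7.58 and 7.87 in C1, C2 and C3. Every double-null array was below every Fz8-null array, and the nearest Fz8-null array, C1, stood at -0.77 from the mean of its own group. The means were 6.13 ± 0.13 in double-null and 7.34 ± 0.68 in Fz8-null kidneys (SD, n = 3), a level 2.32-fold lower in double-null kidneys. The log2 difference of -1.21 (SE 0.32, 95% interval -1.98 to -0.44) did not pass over all genes (limma adjusted p = 0.314), and its exact permutation p was 0.1, the smallest that 3 arrays against 3 allow. It ranked 364 of 18193 genes by p. M3 stood at -1.18 from the Fz8-null mean of Sox8, beside -1.36 for M1 and -1.10 for M2. With array weights, which gave M1 the largest weight and M3 the smallest, Sox8 passed at -1.57 (limma adjusted p = 0.00237), in a fit that called 26.1% of all genes lower.

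Sox9, the closest relative of Sox8 and its partner in the tip, did not show a difference of that size. Its representative (1451538_at) read 9.26, 9.16 and 9.18 in M1, M2 and M3, against 9.34, 9.02 and 9.06 in C1, C2 and C3. The double-null values lay inside the range of the Fz8-null values. The log2 difference was 0.065 (SE 0.14, 95% interval -0.26 to 0.39, limma adjusted p = 0.820; exact permutation p = 0.6), so that a change as large as that of Sox8 lay outside the interval. Another Sox9 probe set (1424950_at) read 6.63, 6.85 and 6.92 in M1, M2 and M3, against 7.08, 6.80 and 7.20 in C1, C2 and C3, a log2 difference of -0.22 (adjusted p = 0.477). The remaining one (1433889_at) averaged 3.01 over all arrays, near background, and stood at -0.031. The mean of the 3 probe sets turned the Sox9 difference to -0.063.

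The contrast between the SoxE genes Sox8 and Sox9 was set out array by array. The log2 value of Sox8 minus that of Sox9 was -3.28, -2.92 and -3.02 in M1, M2 and M3, against -2.76, -1.43 and -1.19 in C1, C2 and C3. The mean was -3.07 ± 0.19 in double-null and -1.79 ± 0.85 in Fz8-null kidneys (SD, n = 3), a shift of -1.28. All 3 double-null arrays were lower than every Fz8-null array, and the exact permutation p of 0.1 is the lowest that this design can give, so it could not pass 0.05. The shift was -1.76 without C1 and -0.97 without C3, the largest and smallest value when single arrays were left out.

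Among 11173 other genes with a mean log2 of at least 6, the profiles most like that of Sox8 were those of Ccnj, which encodes cyclin J, Igdcc3, an immunoglobulin superfamily gene, and 4930513N10Rik. Likeness was the root mean square difference over the 6 arrays after each profile was centred on its mean, and it was 0.13, 0.13 and 0.15 log2 units. Ccnj read 8.63, 8.65 and 8.87 in M1, M2 and M3, against 9.01, 10.03 and 10.23 in C1, C2 and C3. Igdcc3 read 7.62, 7.99 and 7.95 in double-null kidneys and 8.57, 9.35 and 9.44 in Fz8-null kidneys. The array order of these genes was fixed by the choice of the nearest profiles. The nearest profiles to Sox9 were those of Mxi1, a repressor of the Myc network, Tti2, and Ppp2ca, a catalytic subunit of protein phosphatase 2A, at 0.014, 0.019 and 0.020 log2 units. Their differences, fixed by the same choice, ran from 0.038 to 0.092.

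**Figure D2:**
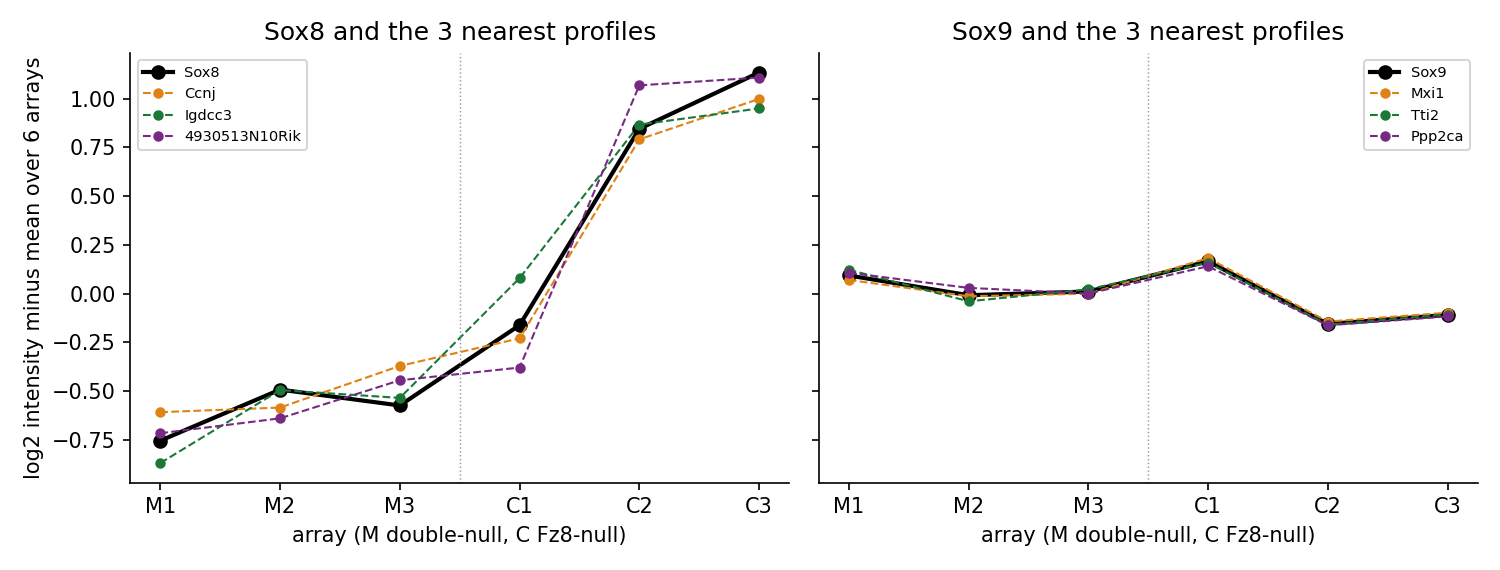
Log2 intensity of Sox8 (left) and Sox9 (right) and of the 3 genes nearest to each, centred on the mean over 6 arrays, with the double-null arrays left of the dotted line and the Fz8-null arrays right of it. By the choice of neighbours, Sox8 and the genes beside it are low in M1, M2 and M3, intermediate in C1 and high in C2 and C3, while Sox9 and its neighbours stay close to their means in all arrays.

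The Ret pathway carries the signal of Gdnf, made by the mesenchyme, into the ureteric tip for branching, and it was measured here in whole kidneys. Of its 11 measured genes 11 lay lower in double-null kidneys and 0 passed the threshold, with 8 not overlapping and a median difference of -0.73. Over all genes 58.1% were lower and 12.2% lower without overlap. Among those that averaged at least 6 these shares were 71.5% and 16.3%. The lists were drawn up with earlier results of these data known, so their counts beside these shares are not a test. The nephron progenitor list lay as one-sidedly, with 9 of 9 lower, 6 without overlap and a median of -0.62. Gdnf stood at -0.73 (SE 0.16) and Etv5, an ETS factor gene downstream of Ret, at -0.74 (SE 0.16; limma adjusted p = 0.314 for both). Genes of the ureteric epithelium at large lay closer to all genes, with 6 of 9 lower and a median of -0.21. Of these 9 genes, 3 were lower without overlap and 0 passed the threshold. Gata3, a factor of the nephric duct, stood at -0.38 and Emx2 at -0.32.

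The SoxC genes had differences between -0.21 and -0.027 at their representative probe sets. Sox4 (1433575_at) read 11.91, 11.92 and 11.51 in M1, M2 and M3, against 11.88, 11.63 and 11.92 in C1, C2 and C3. The groups overlapped, with M3 below all other arrays, and the log2 difference of -0.027 (SE 0.17, 95% interval -0.42 to 0.37) turned to 0.029 with equal array medians. Of 8 Sox4 probe sets 6 stood below 0 and 2 above, and 0 separated the genotypes. The largest Sox4 difference was -0.46 (1449370_at, limma adjusted p = 0.337), with 9.56, 10.17 and 10.15 in M1, M2 and M3, against 10.15, 10.49 and 10.61 in C1, C2 and C3. Another 3 Sox4 probe sets averaged below 4, near background.

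Sox11, a SoxC activator needed for normal kidney and ureter formation in mice, lay lower at every probe set. Its representative (1431225_at) read 13.02, 12.87 and 12.78 in M1, M2 and M3, against 13.08, 13.09 and 13.12 in C1, C2 and C3. The genotypes did not overlap, yet the difference was only -0.21 (SE 0.12, 95% interval -0.50 to 0.084, limma adjusted p = 0.412). All 6 Sox11 probe sets were lower, between -0.65 and -0.10, where 55.6% of all probe sets were lower. Of the 6, 3 did not overlap between genotypes, where 11.3% of all probe sets were lower without overlap. All 6 averaged at least 6, and of the genes at that level 71.5% were lower and 16.3% lower without overlap. The Sox11 probe sets read the same transcripts and are not separate observations of the genotypes. The largest Sox11 difference came from 1453125_at, with 9.19, 9.25 and 9.49 in M1, M2 and M3, against 9.76, 9.94 and 10.18 in C1, C2 and C3. That is -0.65 (95% interval -1.04 to -0.25, limma adjusted p = 0.322), and M3 was the highest of the double-null arrays.

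Sox12, the weakest activator of the SoxC group, gave different answers at its probe sets. The representative (1455562_at) read 8.93, 9.00 and 9.51 in M1, M2 and M3, against 9.57, 9.24 and 8.99 in C1, C2 and C3. The genotypes overlapped widely, and the difference of -0.12 (SE 0.22, 95% interval -0.64 to 0.40) turned to 0.00089 with quantile normalization. Another probe set (1439754_at) read 6.17, 6.09 and 6.42 in M1, M2 and M3, against 7.39, 7.02 and 7.01 in C1, C2 and C3. Here every double-null array lay below every Fz8-null array, at a log2 difference of -0.91 (95% interval -1.32 to -0.51, limma adjusted p = 0.322). The remaining Sox12 probe set (1456882_at) averaged 3.76, near background, and stood at -0.023.

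**Figure D3:**
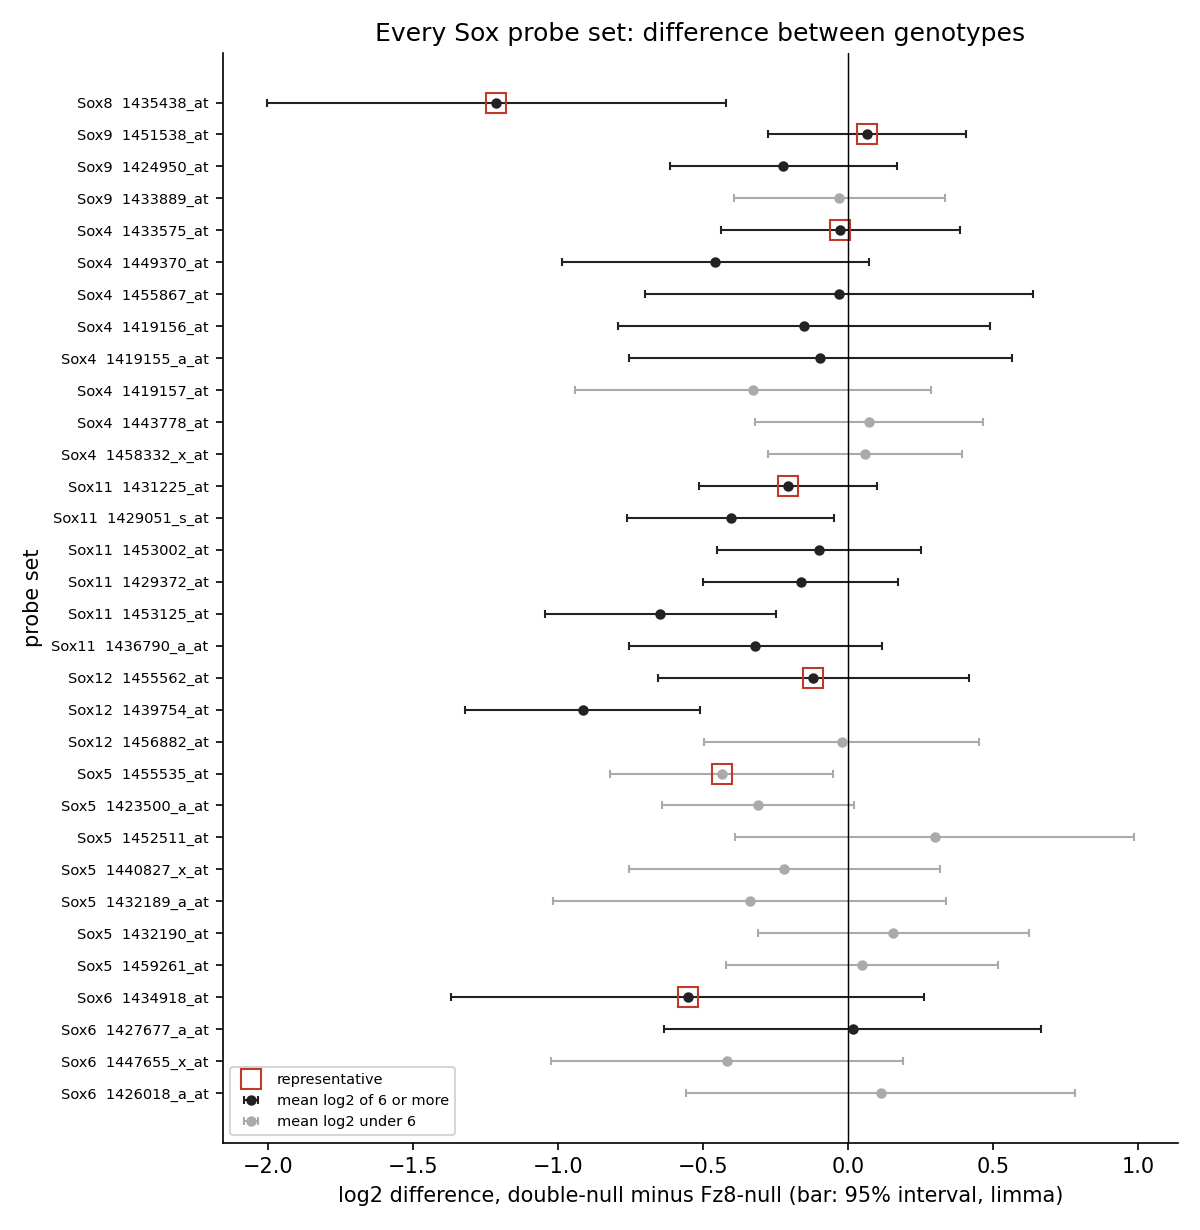
Log2 difference, double-null minus Fz8-null, for each of the 32 Sox probe sets, with its 95% interval from limma (not adjusted for the number of tests). Black points have a mean log2 of at least 6, grey points a lower one, and red squares mark the representatives. Of the 32, 24 lie below 0, and the intervals of 5 of them, 1 each of Sox8, Sox12 and Sox5 and 2 of Sox11, exclude 0. The matching share over all probe sets was not computed. Of all genes 9.23% were lower at an unadjusted p under 0.05, and 12.4% of those with a mean of at least 6.

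Sox5, a SoxD gene, was measured only by probe sets of low signal. Its representative (1455535_at) read 5.46, 5.67 and 5.88 in M1, M2 and M3, against 6.11, 6.23 and 5.98 in C1, C2 and C3. The double-null values were lower without overlap, M3 by the least, and the log2 difference was -0.43 (SE 0.16, 95% interval -0.80 to -0.065, limma adjusted p = 0.314). The next probe set (1423500_a_at) was also lower without overlap, at -0.31. The other 5 ranged from -0.34 to 0.30, and all 7 Sox5 probe sets had a mean under 6.

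Sox6 showed the widest spread within the double-null group. Its representative (1434918_at) read 5.92, 6.18 and 7.19 in M1, M2 and M3, against 6.72, 7.23 and 6.99 in C1, C2 and C3. M1 and M2 lay below all Fz8-null arrays, whereas M3 lay within their range, so the genotypes overlapped and the difference of -0.55 (SE 0.33, 95% interval -1.34 to 0.24) did not pass (limma adjusted p = 0.419). It was 0.21 with M3 as the only double-null array. Another Sox6 probe set (1427677_a_at) stood at 0.016, with 6.20, 6.90 and 6.90 in M1, M2 and M3, against 6.22, 6.90 and 6.83 in C1, C2 and C3. In that probe set M1 and C1 were the low arrays, whatever the genotype. Of 10 measured erythroid genes 9 were higher in double-null kidneys, 0 past the threshold, with a median of 1.43, among them Hemgn at 3.06 and Rhag at 1.09. Their summed log2 level ran from 13.07 in M1 to 14.22 in M2 among double-null arrays, against 13.26 to 13.42 in Fz8-null kidneys. The part of the erythroid genes in the Sox6 values was not tested.

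Leaving out M3 changed the calls for several Sox probe sets. Without it Sox5 passed at -0.54 (limma adjusted p = 0.0473) and Sox6 at -0.93 (limma adjusted p = 0.0222), in a fit where 10.7% of all genes were called lower. Sox8 was at -1.23 (limma adjusted p = 0.0639) in the same fit. In the fit over all probe sets without M3, 5 of the 32 Sox probe sets were called lower, where 12.8% of all probe sets were. These were the representatives of Sox5 and Sox6, 1429051_s_at and 1453125_at of Sox11 at -0.52 and -0.74, and 1439754_at of Sox12 at -1.01 (limma adjusted p = 0.00967). No other single array changed the call of a Sox gene when it was left out, although the Sox6 difference ranged from -0.93 without M3 to -0.30 without M1.

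Cartilage genes that Sox9 activates with Sox5 and Sox6 lay in both directions. Of 12 measured, 6 were lower and 6 higher, 0 passed, and the median difference was 0.00034. Many were dim: Col9a2, Col9a3, Col11a2, Acan, Comp, Matn1 and Chad averaged below 6. At an unadjusted limma p under 0.05, 3 were lower, the dim Col11a2 among them, and 0 higher. Of all genes 9.23% were lower and 6.05% higher in this way. Col2a1, the type II collagen gene, read 7.53, 7.61 and 8.82 in M1, M2 and M3, against 9.34, 9.03 and 8.81 in C1, C2 and C3, so that M3 lay with the Fz8-null arrays (log2 difference -1.07, limma adjusted p = 0.314). Col27a1, another collagen target, stood at -0.68 without overlap. The cartilage genes had a summed log2 level of 11.26 to 11.38 in double-null and 11.40 to 11.66 in Fz8-null kidneys, a sum that rests mostly on the brightest genes. Their mean shift from the Fz8-null mean, with equal weight per gene, overlapped between genotypes. It was -0.16, -0.29 and 0.050 in M1, M2 and M3, against 0.17, -0.031 and -0.14 in C1, C2 and C3.

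Of the 12 other Sox genes on the array 0 passed over all genes. There 5 were lower and 7 higher, with a median of 0.11. Sox7, Sox17 and Sox18, the SoxF genes of endothelium, lay at -0.68, -0.34 and -0.53. Sox17 and Sox18 overlapped between genotypes (limma adjusted p = 0.629 and 0.470), and for Sox18 M3 was the highest of the 6 arrays. Sox7, of smallest p among the 12, read 7.76, 7.27 and 8.03 in M1, M2 and M3, against 8.17, 8.48 and 8.44 in C1, C2 and C3, without overlap. Endothelial markers were lower for 6 of 7 genes, 0 past the threshold, with Kdr, the main VEGF receptor gene, at -0.80 and Esam at -0.61. Their summed log2 level was 11.02 to 11.56 in double-null and 11.47 to 11.70 in Fz8-null kidneys.

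Sox2, Sox21 and Sox1, which are known from neural progenitors, were highest in M1 and M2. Sox2 read 6.35 and 7.10 in M1 and M2 and 3.48 in M3, against 3.75, 3.23 and 2.83 in C1, C2 and C3 (log2 difference 2.38, SE 0.87, limma adjusted p = 0.315). Sox21 read 6.07, 6.78 and 4.94 in double-null kidneys and 4.47, 4.94 and 4.35 in Fz8-null kidneys (1.34, limma adjusted p = 0.314). M1 and M2 exceeded all other arrays in both genes, whereas M3 lay close to the Fz8-null values. Sox2 was near background in M3 and in the Fz8-null arrays. High values in M1 and M2 were not particular to neural genes. Dazl, of the gonad list, read 6.62, 6.60 and 4.98 in M1, M2 and M3, against 4.71, 3.71 and 4.56 in C1, C2 and C3. The B1 repeat control was also highest in M1 and M2. What lies behind this shared profile was not tested. Sox1, of low signal in all arrays, stood at 0.79 (SE 0.37, limma adjusted p = 0.340), with M3 inside the range of the Fz8-null arrays. Sox3 and Sox14, also of low signal, did not share this profile. Sox3 read 4.68, 4.40 and 4.68 in M1, M2 and M3, against 4.46, 4.36 and 4.58 in C1, C2 and C3. Sox14 read 3.28, 3.52 and 3.09 in double-null kidneys and 3.31, 2.92 and 3.37 in Fz8-null kidneys. Among these other Sox genes, all but Sox7 and Sox21 were named after their values were seen. Sox10, the SoxE gene of crest and glia, read 5.30, 5.58 and 5.53 in M1, M2 and M3, against 5.15, 4.83 and 5.11 in C1, C2 and C3, higher without overlap at 0.44 (limma adjusted p = 0.314). Of 5 measured crest and glia genes, Sox10 included, 4 were higher and 0 passed. Fabp7, a fatty acid binding protein of glia, stood at 0.62 and Erbb3, a neuregulin receptor gene, at -0.88.

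**Figure D4:**
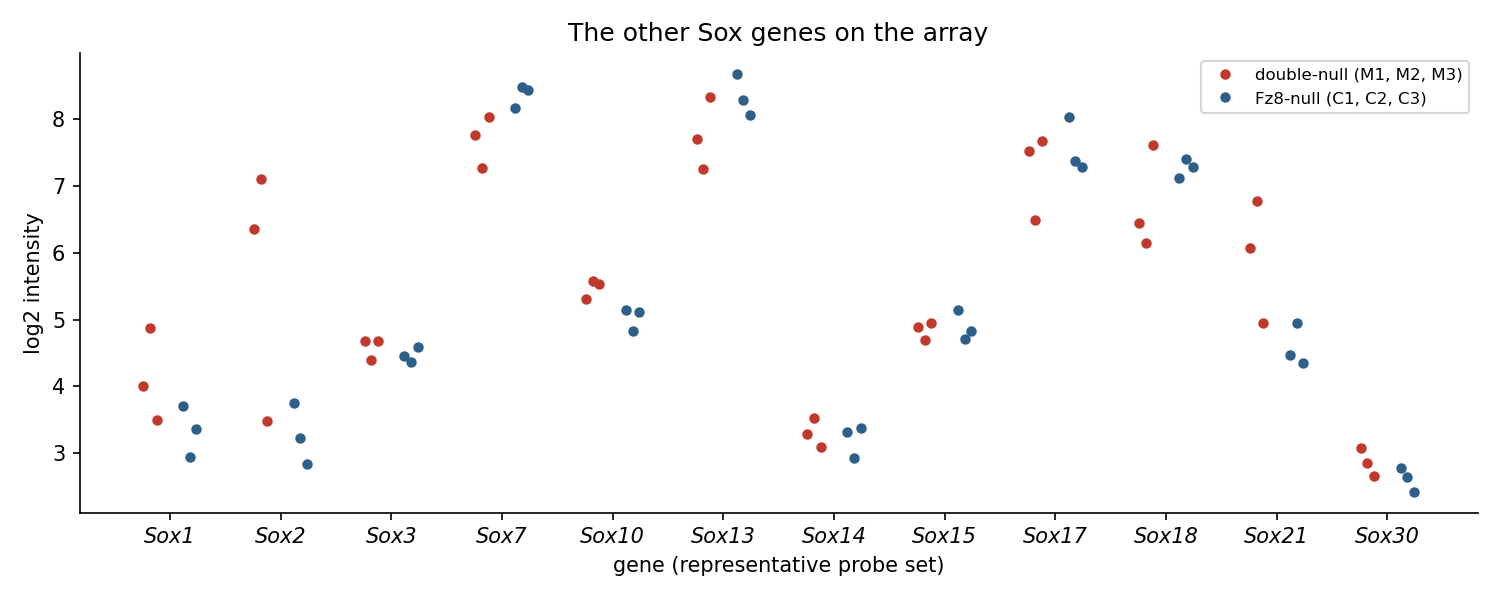
Log2 intensity of the representative probe set of the 12 other Sox genes, with double-null arrays (M1, M2, M3, red) left of Fz8-null arrays (C1, C2, C3, blue) for each gene. Sox2 and Sox21 are highest in M1 and M2, with M3 close to the Fz8-null arrays, and Sox7 lies lower and Sox10 slightly higher in all 3 double-null arrays.

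The remaining cell type lists gave no gene past the threshold. Nephron progenitor genes were lower for 9 of 9 (median -0.62; Crym -1.24, Osr1 -1.26) and early nephron genes for 5 of 7 (median -0.21; Fgf8 -0.92, Pou3f3 -0.40). Stroma was lower for 5 of 6 (median -0.062; Dcn 0.60, Aldh1a2 -0.26). Skeletal muscle was lower for 10 of 10, with 0 of them free of overlap between genotypes (median -0.65, Myh3 -1.29, Des -0.63). Gonad genes were lower for 4 of 9 (median 0.10, Dazl 1.74, Gata4 0.38). Among liver genes Fga stood at 2.54 and Afp at 3.22.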

How the data were processed

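The values deposited by the authors are log2 intensities of probe sets, made with RMA per the submitters' processing notes (version not given in the sources used here), from biotin-labelled cRNA per the labels' protocols. Array medians ran from 6.02 to 6.14, and values were used as deposited. After 64 control probe sets were set aside, 45037 were tested, of which 34945 carried exactly 1 gene, 932 several and 9160 none in GEO's platform annotation; entrez identifiers changed no symbol. Genotypes were compared with limma 3.58.1 under R 4.3.3 (lmFit, eBayes, two-sided, Benjamini-Hochberg over all genes or all probe sets, threshold 0.05), after a test on simulated data. Single values were also compared by exact permutation. Arrays carry no read depth, so their number limits the precision. Where nothing says that replicates came from separate litters, p-values measure the spread between these samples.

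Named genes were the 7 members with all probe sets, Fzd4 and Fzd8, the 2 genes of smallest p from each of 13 lists (none held a gene past the threshold), and the 3 nearest profiles to Sox8 and to Sox9; others were named after their values were seen. The members and lists were chosen with earlier results of these data known. Deviations from the group means correlated between same-numbered arrays at 0.19, -0.20 and 0.17, so no pairing was assumed. Alternatives were a minimum mean of 6, 2 other scalings, other moderation, array weights, a replicate block, the mean of all probe sets, a threshold of 0.1 and leaving out each array. M3 as the only double-null array, and the probe sets without each array, were added after seeing the data.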

Additional observations from a re-analysis of the deposited data

How the results depend on the processing

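The count of genes passing over the whole table was 5, and 7576 with array weights, 3 with the replicate block, 1 with the mean of all probe sets, 1 with ordinary least squares, 11 at an adjusted p of 0.1 and 55 with M3 as the only double-null array. It ran from 2 to 3292 when single arrays were left out (39 without M1, 3292 without M3, 3 without C1, 3 without C2, 2 without C3). The count of Sox genes passing was 0, and 3 with array weights (Sox5, Sox6 and Sox8); it ran from 0 to 2 when single arrays were left out, and was 0 with the replicate block. Sox8 stood at -1.57 with array weights and between -1.60 and -0.95 with an array left out. Sox9 turned to -0.063 with the mean of all probe sets and stood between 0.0034 and 0.16 with an array left out. Sox4 turned to 0.029 with equal array medians, 0.14 with array weights, and 0.11, 0.0072 and 0.028 without M3, C1 and C3 (-0.12 to 0.11 with an array left out). Sox6 turned to 0.21 and Sox12 to 0.24 with M3 as the only double-null array, and Sox12 to 0.00089 with quantile normalization and 0.032 without C1 (-0.30 to 0.032 with an array left out). The cause of these changes was not tested. Sox11 stayed below 0 in all 15 alternatives (-0.31 to -0.11) and passed in 0, and Sox8 minus Sox9 stayed between -1.76 and -0.97.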
